A study of Drosophila melanogaster with 2 samples.

Results

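The genes examined here encode the nuclear pore complex of Drosophila melanogaster, set against binding of CHES-1-like, a forkhead family transcription factor. They were taken as the protein-coding genes of Ensembl release 115 whose symbol begins with Nup and a digit, together with Elys, Mtor, mbo, Gp210, Ndc1 and Sec13. Mtor stands as Mgtor in that annotation, and the newer symbol is used below. The rule found 27 genes among 13968 protein-coding genes. Of these genes, 10 lay on arm 3R, 9 on 2R, 5 on X and 3 on 2L, and none on 3L. Membership rested on gene symbols, but the group was taken up with earlier results of these data known.

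Binding was mapped by ChIP-seq in whole embryos of mixed sex, 0 to 24 h old, of a line with a stable transgene for CHES-1-like tagged with GFP at its C terminus. The immunoprecipitation used an antibody to GFP on chromatin sonicated to 200 to 800 bp. The labels do not name the promoter that drives the transgene. The data comprised biological replicates 2 and 3 of this single group, from separate biosamples of the line, so no condition could be compared and no p-value was computed. Whole embryos mix all tissues and stages, and binding in a few cell types cannot be told apart from weak binding in many.

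Each peak carried the authors' own signal value on the scale of its own list, and ranks run from 1 for the strongest. The pooled list and each replicate list held 30000 entries, background included. The thresholded list, made by the authors from those lists for agreement between the replicates, held 4599 peaks with signals of at least 84.2. For each nuclear pore gene in it, the rank there equalled the rank in the pooled list. A place in it does not by itself show a matching peak in each replicate, and Nup50 below lacks one. Read counts are not part of these lists, so depth is unknown, and the intervals below cover counting error over genes only. Neighbouring genes can share a peak and are not independent.

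The nuclear pore complex is a ring-shaped channel through the nuclear envelope that carries proteins and RNA between nucleus and cytoplasm. Its Y complex builds the outer rings and an inner ring anchors the channel, which is lined with proteins rich in phenylalanine-glycine repeats. Further proteins form filaments on the cytoplasmic side, a basket on the nuclear side and a membrane anchor. In Drosophila several pore proteins also contact chromatin, where they bind active genes.

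The starts of the strongest examples are shown first, because most of them face another gene's start at short range and the summit lies in or beside the shared stretch. Each line gives the dm6 bases between the starts of the 2 divergent genes, read 5′ to 3′ toward the pore gene from the RefSeq release 6 genome, with capitals marking any of the motifs described further below. The stretches are 3R:25247515-25247657 on the plus strand for Nup37, 3R:23781622-23781764 on the minus strand for Nup98-96, 2L:11123568-11123776 on the plus strand for Nup160, X:19652270-19652304 on the plus strand for Elys and X:19852060-19852213 on the plus strand for Nup205. None of them holds an annotated exon of a protein-coding gene, and the Elys stretch holds no thresholded summit.
Nup37, from the start of RpS27: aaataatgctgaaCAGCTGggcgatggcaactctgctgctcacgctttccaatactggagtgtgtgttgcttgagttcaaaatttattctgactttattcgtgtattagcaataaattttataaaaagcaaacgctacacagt
Nup98-96, from the start of mbc: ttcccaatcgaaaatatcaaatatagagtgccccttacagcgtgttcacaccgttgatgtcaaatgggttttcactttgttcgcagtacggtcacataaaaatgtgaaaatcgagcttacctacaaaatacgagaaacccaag
Nup160, from the start of Csl4: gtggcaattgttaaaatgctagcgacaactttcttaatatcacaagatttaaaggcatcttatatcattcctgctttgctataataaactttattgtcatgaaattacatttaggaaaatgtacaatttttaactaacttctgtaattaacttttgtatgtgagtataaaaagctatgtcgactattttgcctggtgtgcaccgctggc
Elys, from the start of Ranbp21: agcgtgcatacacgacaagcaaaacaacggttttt
Nup205, from the start of pico: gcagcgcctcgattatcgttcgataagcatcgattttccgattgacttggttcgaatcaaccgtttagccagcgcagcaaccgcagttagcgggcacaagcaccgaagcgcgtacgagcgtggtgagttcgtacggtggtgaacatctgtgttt

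A gene holds a summit, in the sense used here, if the thresholded list places one no more than 500 bp from any annotated transcription start site (TSS) of that gene. Of the 27 nuclear pore genes, 13 held one (48.1%, exact Clopper-Pearson 95% interval 28.7 to 68.1), against 25.9% of all protein-coding genes (3624 of 13968). The summits were spread over the strength range of the list, with ranks from 55 to 4341. Their median rank was 2681, against 1965 over all 3624 genes with a summit, and their median signal was 118 against 141. Nuclear pore genes thus held summits more often than the average gene, but those summits were not stronger than usual. Whether the share differs from that of other genes was not tested.

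**Figure D1:**
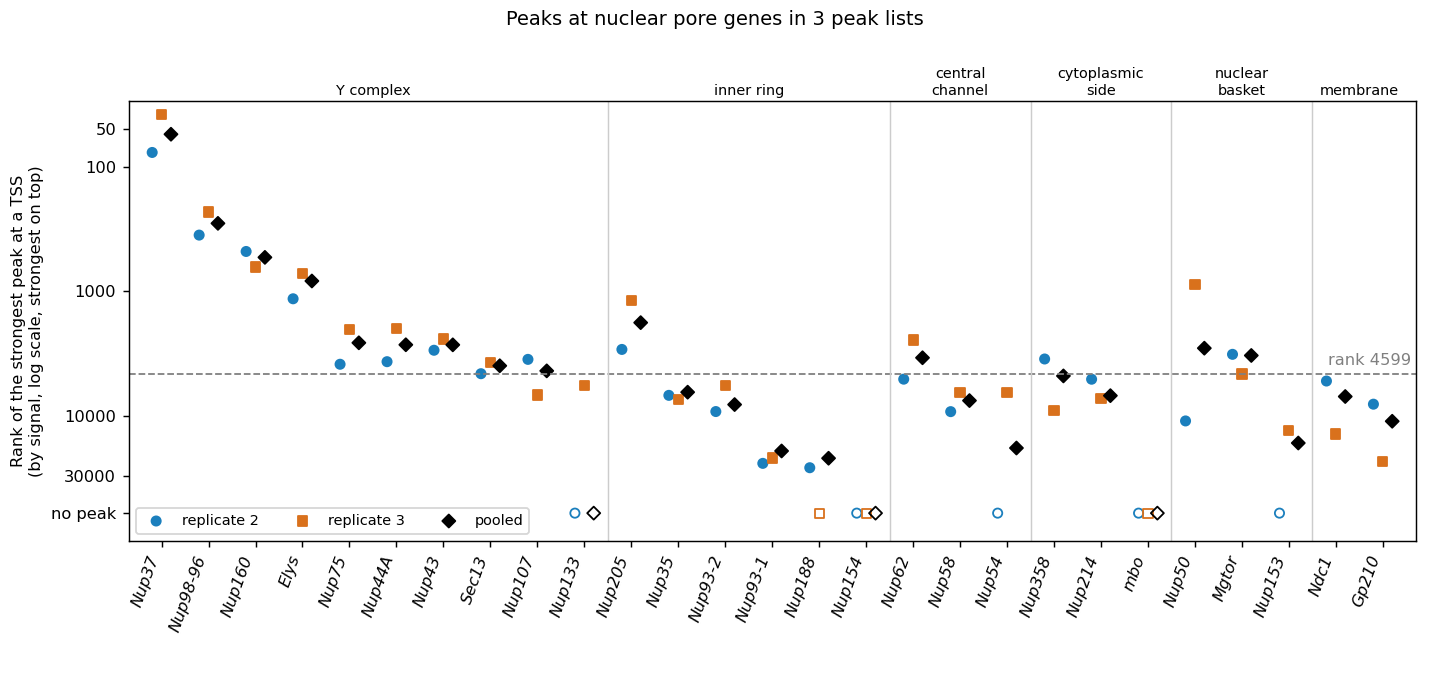
Rank of the strongest peak within 500 bp of a TSS for each of the 27 nuclear pore genes in replicate 2 (circles), replicate 3 (squares) and the pooled list (diamonds), on a log axis with the strongest on top, grouped by place in the pore. Open symbols mark genes with no peak in that list, and the dashed line marks rank 4599, the size of the thresholded list. Of the 10 Y complex genes, 9 have pooled ranks above the line, between 55 and 4341.

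Within the pore, summits were most frequent at genes of the Y complex. Of its 10 genes, 9 held a summit (90.0%, interval 55.5 to 99.7), against 4 of the 17 other nuclear pore genes (23.5%, interval 6.81 to 49.9). Under this rule the 17 others lay near the background of 25.9%, but under others they did not. With pooled entries of q under 0.05, 10 of the 17 were counted (58.8%), against 38.6% of all genes, and with a window of 1000 bp 8 of the 17, against 28.9%. The Y complex count also moved, to 7 of 10 with 1 TSS per gene, against 23.4% of all genes. By the nearest TSS only, at any distance, it was 7 of 10 too, against 24.4%. The 17 others gave 4 and 2 under these 2 rules. All 10 Y complex genes had another gene's TSS within 1000 bp, where 41.3% of all genes held a summit. Of the 13 other pore genes with such a neighbour, 3 held one (23.1%). The split into subcomplexes followed known protein architecture and no binding value, but the contrast was noticed in these data and was not tested.

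Nup37, a Y complex subunit (FBgn0039301; 3R, 25247658 to 25249100 in dm6, plus strand), lay beside the strongest summit of any nuclear pore gene. Its signal was 702 in the thresholded list, where it ranked 55. The signal was 355 in replicate 2, with rank 77, and 346 in replicate 3, with rank 38. The summit, at 25247515, stood 143 bp upstream of the Nup37 start and 1 bp from the start of RpS27, which encodes a cytosolic ribosomal protein and is transcribed away from Nup37. The peak therefore counts for both genes, and on distance alone it belongs to RpS27.

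Nup98-96 (FBgn0039120; 3R, 23774225 to 23781621, minus strand) encodes a polyprotein that is cleaved into Nup98, a mobile repeat protein that also binds chromatin, and Nup96, a Y complex subunit. Its summit at 23781636 lay 15 bp upstream of a TSS and ranked 285, with signal 353. The gene ranked 354 in replicate 2 (signal 188) and 231 in replicate 3 (signal 162). Here the pore gene's own start was nearest, and mbc, a myoblast fusion gene on the other side, started 129 bp from the summit.

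Nup160 (FBgn0262647; 2L, 11123777 to 11129335, plus strand), a large scaffold subunit of the Y complex, had its summit 23 bp upstream of its TSS, with signal 268 and rank 534. It ranked 479 in replicate 2 (signal 163) and 639 in replicate 3 (signal 108). The neighbour Csl4, an RNA exosome gene, started 187 bp from that summit. Nup37, Nup98-96 and Nup160 were the 3 strongest of the group in both replicates.

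Elys (FBgn0031052; X, 19652305 to 19659407, plus strand) encodes the protein that seats the Y complex on chromatin when pores form after mitosis. It held 2 thresholded summits, the only nuclear pore gene with more than 1. The stronger one had signal 217 and rank 826 and lay 169 bp upstream of the nearest Elys start, in the 5′ UTR of Ranbp21, whose start was 133 bp away. The weaker one had signal 86.2 and rank 4423 and lay 33 bp from the Elys start. In the replicates the strongest peak at Elys ranked 1147 in replicate 2 (signal 106) and 724 in replicate 3 (signal 102). Ranbp21 encodes an exportin, so a pore gene and a transport receptor gene shared a peak here, with starts 36 bp apart.

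The remaining Y complex genes had weaker summits, all in the lower part of the thresholded list. Nup75, the fly counterpart of vertebrate Nup85, ranked 2586 (signal 121), with ranks 3842 in replicate 2 and 2020 in replicate 3. Its summit lay 70 bp upstream of its own start and 17 bp from that of CG42518, and MED9, a Mediator subunit gene, also started within 500 bp. Nup44A, the counterpart of Seh1, ranked 2681 (signal 118), with 3664 in replicate 2 and 1993 in replicate 3. Its summit stood 36 bp from an internal TSS and 109 bp from a start of ACC, the acetyl-CoA carboxylase gene, within introns of both genes.

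Nup43, a small Y complex subunit, ranked 2685 (signal 118), with 2967 in replicate 2 and 2409 in replicate 3, and its summit lay 43 bp upstream of its TSS. Sec13, which serves both the Y complex and the COPII vesicle coat, ranked 3951 (signal 92.4), with 4574 in replicate 2 and 3718 in replicate 3. That summit was the only one of the 13 in coding sequence, 227 bp downstream of the nearer of 2 annotated starts. Nup107 was the weakest of the 13, with signal 87.2 and rank 4341, 136 bp upstream of its start. It ranked 3511 in replicate 2 (signal 58.1) but 6767 in replicate 3 (signal 30.6), below the 4599 best peaks there.

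Nup133 was the single Y complex gene without a summit. It had no peak at its TSS in the pooled list or in replicate 2, and a peak of rank 5722 in replicate 3, 38 bp downstream. The nearest thresholded summit lay 4096 bp away, at Gclm.

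Of the 6 inner ring genes, which encode the scaffold between the outer rings and the channel, 1 held a summit. Nup205, a large scaffold gene (FBgn0031078; X, 19852214 to 19859379, plus strand), ranked 1782 with signal 148. It ranked 2922 in replicate 2 (signal 64.8) and 1187 in replicate 3 (signal 81.6). The summit lay 80 bp upstream of its start and 75 bp from that of pico, almost midway between them.

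The other inner ring genes fell below the thresholded list by varying margins. Nup35 had a pooled rank of 6433, with 6822 in replicate 2 and 7406 in replicate 3. Nup93-1 and Nup93-2, both named for the inner ring protein Nup93, differed. Nup93-2 had a pooled rank of 8087, with its summit 33 bp upstream, and Nup93-1 had a pooled rank of 19046, with its summit 287 bp downstream. Nup188 had a pooled rank of 21778 and no peak at its TSS in replicate 3. Nup154, the counterpart of vertebrate Nup155, had no peak within 500 bp of its start in any of the lists. A thresholded summit of rank 2340 lay 669 bp from the Nup154 start, 2 bp from that of RpL9, a ribosomal protein gene.

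The bases before the start are shown for 3 genes that bracket this range, 150 bp each, read 5′ to 3′ in the direction of the gene and with motif letters in capitals. They are Nup107 (2L:10736072-10736221, minus strand), the weakest with a summit, Nup58 (3R:19644876-19645025, plus strand), a channel gene below the threshold, and Nup154 (2L:11004670-11004819, plus strand), without any peak.
Nup107: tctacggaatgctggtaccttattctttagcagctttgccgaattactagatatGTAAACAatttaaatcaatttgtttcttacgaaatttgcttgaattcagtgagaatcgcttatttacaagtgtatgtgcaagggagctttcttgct
Nup58: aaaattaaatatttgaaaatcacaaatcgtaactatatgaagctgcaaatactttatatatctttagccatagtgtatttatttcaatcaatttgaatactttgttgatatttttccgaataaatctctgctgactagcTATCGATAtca
Nup154: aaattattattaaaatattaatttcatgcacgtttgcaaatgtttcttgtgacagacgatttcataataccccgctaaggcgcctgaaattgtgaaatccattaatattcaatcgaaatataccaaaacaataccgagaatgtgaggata

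Among the 3 genes of the central channel, whose products carry the repeats that form the permeability barrier, Nup62 held a summit. It ranked 3408 with signal 102, 30 bp upstream of an annotated start and in the 5′ UTR from another, and its replicate ranks were 5059 in replicate 2 (signal 45.6) and 2453 in replicate 3 (signal 55.8). Nup58 had a pooled rank of 7513, with 9215 in replicate 2 and 6511 in replicate 3. Nup54 had a pooled rank of 18034, none in replicate 2 and 6455 in replicate 3.

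In the nuclear basket, Mgtor and Nup50 held summits. Mgtor encodes Megator, the counterpart of vertebrate TPR and the main fibre of the basket. Its summit ranked 3267 (signal 105) and lay 12 bp downstream of its start. It ranked 3199 in replicate 2 (signal 61.4) and 4606 in replicate 3 (signal 38.7), just outside the 4599 best. Mgtor was the only one of the 13 without another protein-coding gene's start within 1000 bp, the nearest being 7293 bp away. This summit thus had no rival among protein-coding genes, and starts of non-coding genes were not searched.

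Nup50, a basket protein that also binds importins, had the least similar replicates of the 13. It ranked 2855 in the thresholded list (signal 114) and 879 in replicate 3 (signal 94.4). In replicate 2 its strongest peak ranked 10940 (signal 27) and lay 209 bp upstream, and no replicate 2 summit stood within 100 bp of the thresholded one. The thresholded summit lay 39 bp upstream of Nup50 and 4 bp from the start of Asap, an ArfGAP gene. Nup153, the third basket gene, had a pooled rank of 16444, none in replicate 2 and 13085 in replicate 3.

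No gene of the cytoplasmic side or the membrane anchor held a summit, but with 3 and 2 genes the intervals reach 70.8% and 84.2%. Nup358, a large filament protein known as RanBP2 in vertebrates, came closest, with a pooled rank of 4765 against the 4599 of the thresholded list. It ranked 3486 in replicate 2 (signal 58.3) and 9030 in replicate 3 (signal 25.9), so the replicates fell on different sides. Nup214 had a pooled rank of 6860. mbo, the counterpart of vertebrate Nup88, had no peak at its TSS in any list, and the nearest thresholded summit was 24932 bp away. Of the membrane genes, Ndc1 had a pooled rank of 6970 and Gp210 one of 11003.

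Of the 14 genes without a summit, 11 had an entry at a TSS in the pooled list, which includes background, with a median rank of 8087. Of these, 6 had a deposited q-value under 0.05 (Nup358, Nup35, Nup214, Ndc1, Nup58 and Nup93-2). In all, 24 of the 27 nuclear pore genes had a pooled entry of any strength (88.9%), against 56.6% of all genes. With a q-value under 0.05 these were 19 of 27 (70.4%), against 38.6%. Nup133, Nup154 and mbo were the 3 with none.

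The replicates gave similar counts for the group and agreed on most members. Among the 4599 best peaks of each, 12 nuclear pore genes held a summit in replicate 2 (44.4%), against 25.2% of all genes, and 11 in replicate 3 (40.7%), against 26.2%. In both replicates it was 9 genes (33.3%), against 21.0%. These were 9 of the 13 with a thresholded summit (69.2%), against 80.0% of all genes with one, and the difference was not tested. The other 4 of the 13 were Nup107 and Mgtor, which fell out in replicate 3, and Nup62 and Nup50, which fell out in replicate 2. Nup358 held one in replicate 2 alone among genes without a thresholded summit.

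**Figure D2:**
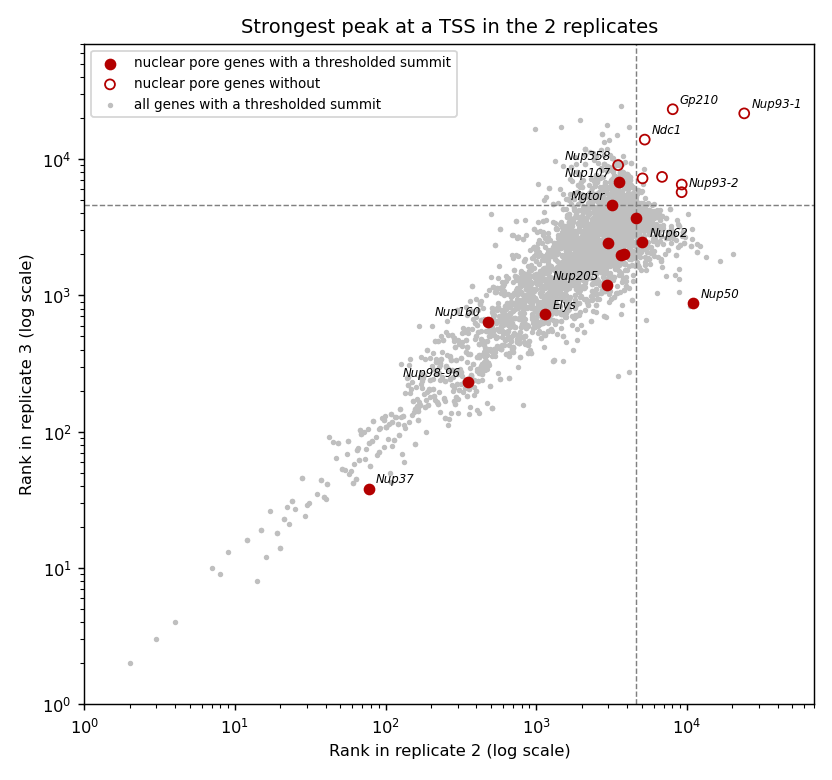
Rank of the strongest peak within 500 bp of a TSS in replicate 2 and replicate 3, both on log axes, for nuclear pore genes with a thresholded summit (filled red), those without but with a peak in both replicates (open red), and all genes with a thresholded summit (grey); dashed lines mark rank 4599. Nup37, at ranks 77 and 38, is the strongest of the group in both replicates, and Nup50, at ranks 10940 and 879, lies farthest from the diagonal among the filled points.

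Summits lay close to the starts and mostly upstream. For 11 of the 13 genes (84.6%) the strongest summit was upstream of the nearest own TSS, against 79.7% of all genes with a summit. Mgtor and Sec13 were the exceptions. The median distance was 43.0 bp, within a range of 12 to 227 bp, against a median of 97.0 bp over all genes with a summit. None of the 27 genes held a thresholded summit inside the gene beyond 500 bp from its starts. That count was not made over all genes, so whether it is unusual is not known.

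**Figure D3:**
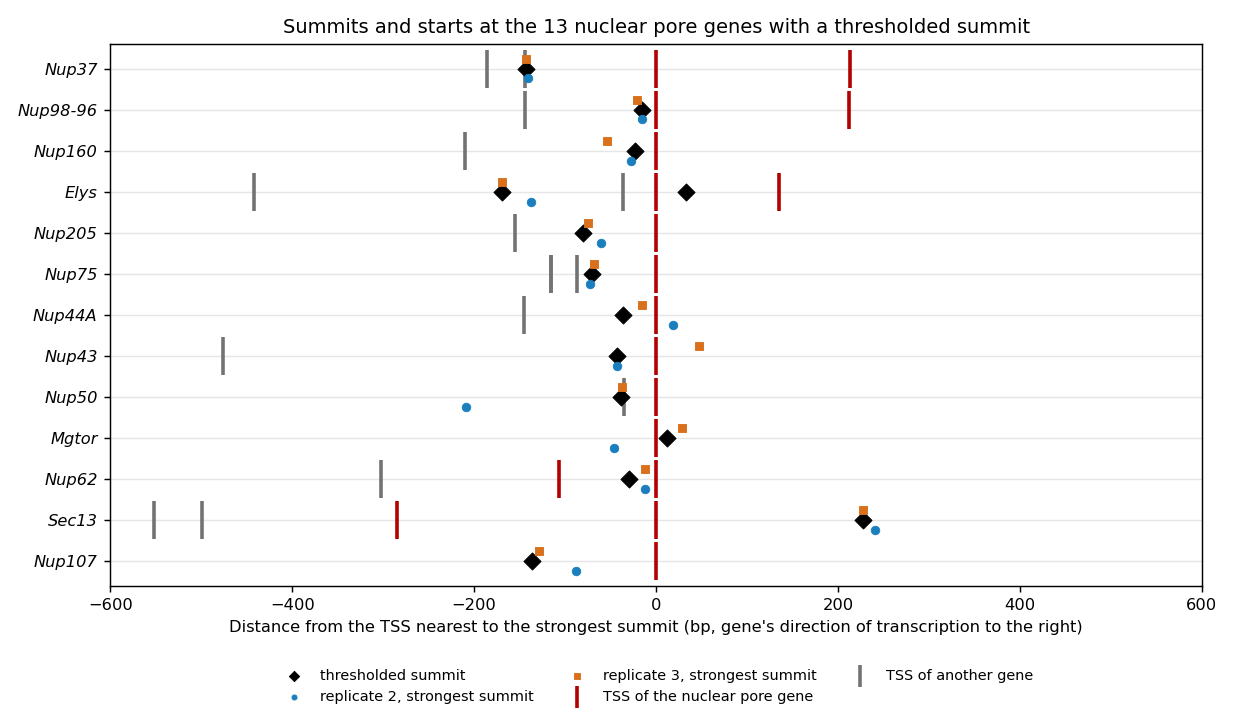
Position of thresholded summits (diamonds) and of the strongest summit in replicate 2 (circles) and replicate 3 (squares) at the 13 genes, in bp from the own TSS nearest to the strongest summit, with upstream to the left; vertical bars mark starts of the pore gene (red) and of other genes (grey). Genes run from the highest rank at the top to the lowest at the bottom, and the RpS27 start lies under the Nup37 diamond, 143 bp upstream.

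Close neighbouring starts were common among these genes. Of the 27, 23 had another gene's TSS within 1000 bp, against 5985 of all 13968 genes. In 22 of the 23 the nearest one was on the other strand, a count not made over all genes. In that subset 12 of 23 held a summit (52.2%), against 41.3% across the 5985 genes that have one. Of the 4 without such a neighbour 1 did, Mgtor (25.0%), against 14.4%. The gap to other genes was thus narrower once close neighbours were taken into account, 52.2% against 41.3%, than in the count over all genes, 48.1% against 25.9%.

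For 10 of the 13 genes the strongest summit also lay within 500 bp of another gene's start, and for 5 of them that other start was nearer. These 5 were Nup37 (RpS27), Elys (Ranbp21), Nup75 (CG42518), Nup205 (pico) and Nup50 (Asap). Neither count was made over all genes with a summit, so whether such sharing is unusual was not tested. When each thresholded summit counted only for the gene with the nearest TSS, 9 nuclear pore genes kept one, Elys through its weaker summit. That rule set no limit on distance, unlike the 500 bp rule, and counted 24.4% of all genes. A window of 1000 bp brought the count to 17, against 28.9% of all genes, adding Nup154, Nup35, Nup58 and Nup93-1. Each of those 4 summits was nearest to the divergent neighbour, at RpL9, Rip11, Vha13 and Clic.

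**Figure D4:**
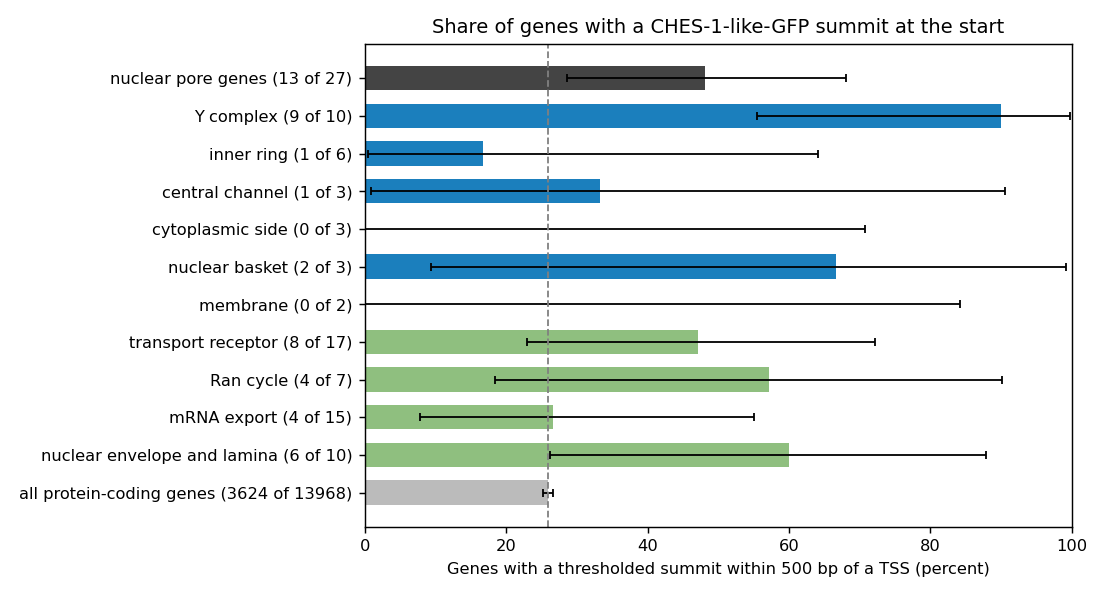
Share of genes with a thresholded summit within 500 bp of a TSS, in percent, for the nuclear pore genes, their subcomplexes, the 4 lists of transport, export and envelope genes and all protein-coding genes, with exact 95% intervals; the dashed line marks all protein-coding genes. The Y complex stands at 90.0% and the inner ring at 16.7%, and the intervals of the small groups are wide.

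Genes that work with the pore also held summits, in unequal shares. Of 49 genes in 4 lists of transport receptors, the Ran cycle, mRNA export and the nuclear envelope, 22 held one (44.9%, interval 30.7 to 59.8), against 25.9% of all genes. Among those with another gene's TSS within 1000 bp it was 18 of 31 (58.1%), against 41.3%, and among the rest 4 of 18 (22.2%), against 14.4%. For 6 of the 22 (RanGAP, Tnpo, Tnpo-SR, bocks, klar and e(y)2) the strongest summit was nearer to another gene's start, a count not made over all genes. Transport receptors, which ferry cargo through the channel, held one in 8 of 17 cases (47.1%, against 25.9% of all genes). With a close neighbour it was 7 of 9, against 41.3% of all such genes, and without one 1 of 8, against 14.4%. msk, an importin gene, ranked 124, Kap-alpha3, an importin alpha gene, 255, Karybeta3 629, Tnpo-SR 684, Ranbp21 826, emb, the main exportin gene, 1311, Tnpo 1567 and Kap-alpha1 3565. The other 9 receptor genes held none.

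In the Ran cycle, which sets the direction of transport, 4 of 7 genes held a summit (57.1%, against 25.9% of all genes). With a close neighbour it was 2 of 4, and without one 2 of 3. RanGAP, which switches Ran off in the cytoplasm, ranked 145, RanBP3 618, Rcc1, which charges Ran on chromatin, 3523 and Ntf-2, the importer of Ran, 4173. Of the mRNA export list 4 of 15 genes did, close to the background, at ranks of 2648 for Hel25E, an RNA helicase gene, 3094 for e(y)2, 3270 for Rae1 and 4286 for sbr, the export receptor gene. Rae1 encodes a protein that sits at the pore but lies outside the symbol rule.

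Of 10 envelope and lamina genes, 6 held a summit (60%, against 25.9% of all genes). All 6 were among the 8 with another gene's TSS within 1000 bp, where 41.3% of all genes held one. The 6 were Msp300 with rank 46, bocks with 688, klar with 1132, koi with 1756, Lam, the B-type lamin gene, with 1790 and Ote with 2657. The median rank of these 6 was 1444 and that of the 8 receptor genes 755. For the 4 Ran cycle genes it was 2070, and for the 4 mRNA export genes 3182. The nuclear pore genes had a median of 2681, and all genes with a summit 1965.

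Motif letters were searched on both strands in the 300 bases from 250 before to 50 after the canonical start. For Nup44A and Sec13 the summit lay more than 500 bp from that start, so their promoter windows do not reach it. The DRE (TATCGATA), the site of the promoter factor DREF, stood in 7 of 27 nuclear pore promoters (25.9%), against 8.94% of all 13968. These were Nup50, Mgtor, Nup75, Gp210, Nup54, Nup188 and Nup58. It was found in 3 of the 13 with a summit and in 4 of the 14 without, close to even shares of each group. The strongest pore promoters, Nup37, Nup98-96, Nup160, Elys and Nup205, held none.

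The core of Motif 1 (GGTCACACT), another element of broadly active promoters, stood in 4 of 27 (14.8%, against 5.86% of all), at Nup160, Nup43, Nup93-2 and Ndc1. A forkhead site (the letters AAACA preceded by AT, AC, GT or GC) stood in 12 of 27 (44.4%), against 35.1%. These letters stood in 6 of the 13 with a summit and 6 of the 14 without. Within 100 bp of the summit, 4 of the 13 genes had one (30.8%, against 27.5% over all genes with a summit), at Nup107, Nup160, Nup44A and Nup43. Within 250 bp of the summit the order was reversed, with 7 of 13 (53.8%) against 56.4%. In Nup44A the letters GTAAACA began 2 bp before the summit, and further matches began 21 and 93 bp after it.

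The remaining letters were searched in the same way. GACGC stood in 7 of 27 promoters (25.9%, against 22.8%) and within 100 bp of the summit in 4 of 13 (30.8%, against 16.9% over all genes with a summit). Within 250 bp of the summit the order was reversed, with 5 of 13 (38.5%) against 43.1%. The E-box CAGCTG stood in 4 (14.8%, against 17.9%), the Zelda site CAGGTAG in 1, at Ndc1 (3.70%, against 1.72%), and GAGAGAG in 0 (0%, against 6.19%). The E-box in the Nup37 stretch printed above began 13 bp from the strongest summit of the group. Within 100 bp of the summit an E-box stood in 2 of 13 (15.4%), against 16.9% over all genes with a summit. Within 250 bp it was also 2 of 13, against 34.3%. A match is a description of letters and was not tied to binding.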

How the data were processed

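ChIP-seq peak lists of 2 biological replicates of CHES-1-like-GFP embryos were used on dm6. Per the deposited manifests, the replicate and pooled lists came from the alignments of each or both libraries and a control, and the thresholded list from those lists by the irreproducible discovery rate procedure. The sources used here do not name the aligner, peak caller or versions. The signal of each peak and its −log10 q-value are the deposited values of the authors. The dm3 lists were not used.

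Summits were assigned to all 19630 annotated TSSs of 13968 protein-coding genes on the chromosome arms. Counts carry exact Clopper-Pearson intervals at 95%. Promoters and stretches were read from the RefSeq release 6 genome at the canonical starts, since no promoter table was used here. Older symbols (Mtor, Ranbp11, ran-like) were matched to current ones through RefSeq synonyms. Every nuclear pore gene is named; other listed genes are named mainly where they held a summit. The members and lists were chosen with earlier results of these data known. The counting and motif functions were tested on simulated data. Alternatives varied the window, TSSs, list and replicate. Python 3.11.15, pandas 2.3.3 and scipy 1.17.1 were used.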

Additional observations from a re-analysis of the deposited data

How the results depend on the processing

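The count of 13 nuclear pore genes stayed within 1.5 times under 9 of 10 changes of window, TSS choice, list or assignment, from 9 to 19. In the stronger 2299 peaks it was 5 of 27, against 15.0% of all genes, with 4 in the Y complex and 1 elsewhere in the pore. Of the 49 transport, export and envelope genes, 14 were counted there. The stronger list holds fewer peaks by construction. From the full list to it, the pore count fell from 13 to 5 and the share of all genes from 25.9% to 15.0%. The pore count thus fell by a larger factor, and the cause was not tested. Of the 4 nuclear pore genes without a close neighbour, 1 was counted in the full list. Without replicate 2 the pore count was 11 and without replicate 3 it was 12. Over the same pair of settings, the Y complex count was 8 and 9, the count outside it 3 and 3, and the transport count 23 and 22. The separate counts inside and outside the Y complex were added after seeing the data. Outside the Y complex the count of 4 among 17 became 8 within 1000 bp (against 28.9% of all genes). It was 10 with pooled peaks of q under 0.05 (against 38.6%) and 2 by the nearest TSS at any distance (against 24.4%). The cause was not tested. Only Nup98-96, Nup160 and Elys kept their summit under all 10 changes. Among motifs, the Motif 1 core stood in 38.5% of windows of 250 bp each side of summits, against 12.4% over all genes with a summit. Within 100 bp it was 15.4% against 7.40%, and the cause was not tested. The Zelda site stood in 0% of summit windows of either size. Over all genes with a summit it stood in 0.662% (100 bp) and 2.32% (250 bp). No paired analysis was possible because both samples belong to 1 group. Depth is unknown, so an absent peak cannot be read as absent binding.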
